A study of Rattus norvegicus with 14 samples.

Results

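The small RNA profile of resting whole blood was described in the 7 control rats of the study, which are 7 of the 14 animals whose small RNA was sequenced. They were chosen by their labels alone, as saline controls, and no library labelled as treated entered any value. For animal 3 the label and a list in the study's supplement disagree, as given below. The controls were adult male Sprague-Dawley rats of 85 to 90 days that received 4 injections of saline 2 h apart, and whole blood was collected by cardiac puncture 3 h after the last injection. There was 1 library for each animal. The values came in separate tables for 516 mature miRNAs, for 495 of their hairpins and for 9199 transcripts that the authors list as ncRNAs (non-coding RNAs).

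A miRNA is cut from a hairpin-shaped precursor, whose 5′ side and 3′ side each can give a mature strand, the 5p and the 3p arm. Usually 1 arm is kept by an Argonaute protein and the other is degraded, and the kept arm finds its targets mainly through its seed, bases 2 to 8. Whole blood mixes red cells, which have lost their nucleus but still carry miRNAs, with platelets, white cells and plasma, and miR-486, miR-451 and miR-144 are best known from the red cell lineage.

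Between 3738295 and 8286151 reads per animal were counted on mature miRNAs, 5025594 to 10242169 on hairpins and 1960725 to 4017262 on ncRNAs. A level is given below as the share of a feature in the sum of its own table in 1 animal, and n is 7 animals throughout. Normalized counts are reads scaled by the upper quartile of the library. Across the 227 miRNAs that averaged 100 normalized counts or more, Spearman's rho between the shares of any pair of animals was 0.943 to 0.985 over the 21 pairs, and no pair of libraries differed by as little as sampling noise. Animals 1 and 4 stood farthest from the others, with a median deviation of 0.41 and 0.40 on the log2 scale from the median animal, against 0.19 to 0.24 in the other 5. These shares include miR-486, whose own share was highest in animal 1 and lowest in animal 4. Control animal 3 carries the label of a control, whereas a list of animals in the study's supplement gives its mRNA sample as AMPH hyper, and animal 4 is not in that list. Animal 3 was kept as a control, and the values without it are given where the main results stand. Animal 4 was kept by its label as well.

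The most abundant mature sequences were read from RefSeq, where 465 of the 516 miRNAs were found by name, and are shown first so that the shared seeds can be seen. miR-486, miR-301a-3p and miR-150-5p were not matched, and the 465 miRNAs with a sequence held 45.7% of the profile, since miR-486 is not among them. The seed is in capitals.
miR-16-5p: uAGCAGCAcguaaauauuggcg
miR-15b-5p: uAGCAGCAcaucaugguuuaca
let-7f-5p: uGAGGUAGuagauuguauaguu
let-7i-5p: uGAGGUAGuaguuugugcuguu
let-7a-5p: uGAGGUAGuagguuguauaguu
let-7c-5p: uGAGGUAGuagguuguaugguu
let-7g-5p: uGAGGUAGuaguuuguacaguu
let-7d-5p: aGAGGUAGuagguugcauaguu
miR-26a-5p: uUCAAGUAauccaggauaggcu
miR-26b-5p: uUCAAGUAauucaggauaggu
miR-191a-5p: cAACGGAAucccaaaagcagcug
miR-181a-5p: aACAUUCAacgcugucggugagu
miR-25-3p: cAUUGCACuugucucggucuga
miR-92a-3p: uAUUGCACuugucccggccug
miR-451-5p: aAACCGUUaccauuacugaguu
miR-27b-3p: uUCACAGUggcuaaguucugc
miR-22-3p: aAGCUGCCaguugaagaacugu
miR-142-5p: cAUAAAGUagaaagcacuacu
miR-186-5p: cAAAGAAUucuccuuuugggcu
miR-93-5p: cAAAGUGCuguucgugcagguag
The let-7 members listed here differ from each other at few bases. let-7a-5p is 1 base away from let-7f-5p, from let-7c-5p and from let-7e-5p over 22 bases, and miR-27b-3p is 1 base away from miR-27a-3p over 21 bases. The number of mismatches that the counting allowed is not given in the sources used here, so the split of reads between such neighbours is uncertain. Of the mature miRNAs with reads and a sequence, 45 were 1 base or less away from another.

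The mature profile was dominated by miR-486, a miRNA of the red cell lineage, which took 53.1% ± 4.39 (SD) of the mature miRNA sum. Its share was lowest in animal 4 (47.7%), had a median of 52.3% and was highest in animal 1 (61.5%). Without animal 3 the mean was 53.3%. miR-16-5p, a member of the miR-15/16 family known to restrain the cell cycle, followed with 10.1% ± 0.861 and a range of 8.83% to 11.1%, and miR-26a-5p with 6.60% ± 0.426 and a range of 5.89% to 7.20%. miR-191a-5p held 4.48% ± 1.18, let-7f-5p 3.13% ± 0.631, let-7i-5p 2.45% ± 0.399 and miR-181a-5p, a miRNA known from lymphocyte development, 1.97% ± 0.437. The first 4 miRNAs stood in the same order in each of the 7 animals.

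**Figure D1:**
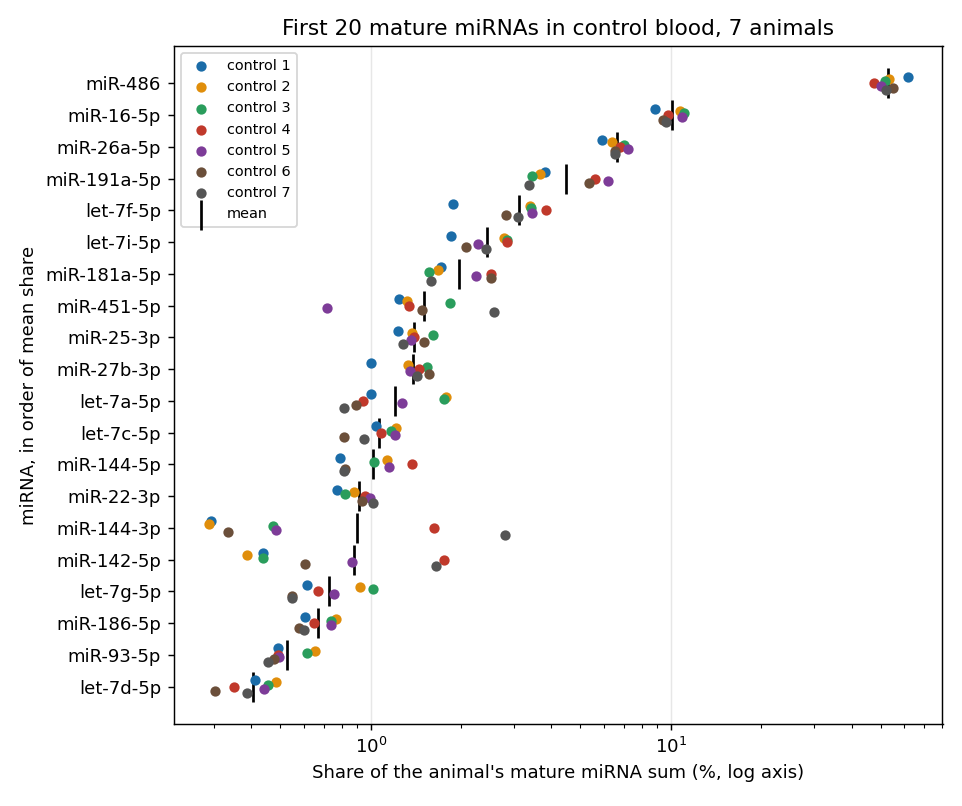
Share of the mature miRNA sum (percent, log axis) for the 20 miRNAs with the largest mean share, with 1 point for each control animal and a bar for the mean. miR-486 lies between 47.7% and 61.5% in the 7 animals, whereas the points of miR-144-3p spread from 0.289% to 2.81%.

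The next 13 miRNAs of the first 20 had mean shares between 1.50% and 0.405%. miR-451-5p, the red cell miRNA that is made by Argonaute 2 without Dicer, had a mean share of 1.50% ± 0.578 and ranged from 0.714% in animal 5 to 2.57% in animal 7. miR-25-3p had 1.40% ± 0.132, miR-27b-3p 1.38% ± 0.188, let-7a-5p 1.21% ± 0.408 and let-7c-5p 1.07% ± 0.147. The arms of miR-144, which shares its transcript with miR-451, had mean shares of 1.02% ± 0.219 (miR-144-5p) and 0.903% ± 0.967 (miR-144-3p), and miR-22-3p had 0.911% ± 0.0896. The remaining members of the first 20 were miR-142-5p (mean share 0.877%), a miRNA of blood cells in general, let-7g-5p (0.724%), miR-186-5p (0.668%), miR-93-5p (0.525%) and let-7d-5p (0.405%).

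Neighbours in this order were compared with an exact sign-flip permutation test (two-sided, 19 pairs among the first 20, Benjamini-Hochberg adjustment). The pairs and their direction came from the mean shares of the same 7 animals. The p-values are therefore descriptive and give no independent support for the order. The first 6 ranks were separated, from miR-486 down to let-7i-5p, each by a share that was higher in 7 of 7 animals (exact p = 0.0156, the smallest that 7 animals can give, adjusted p = 0.0424). The smallest of these steps was from let-7f-5p to let-7i-5p, with a mean log2 ratio of 0.34. From let-7i-5p to miR-186-5p none of the 12 neighbouring pairs was separated beyond the spread between animals, with adjusted exact p-values from 0.260 to 0.859. For miR-451-5p and miR-25-3p the mean log2 ratio was 0.02 with an SD of 0.57, and the sign was positive in 3 of 7 animals. At the lower end, miR-186-5p was again above miR-93-5p, and miR-93-5p above let-7d-5p, in 7 of 7 animals (exact adjusted p = 0.0424 for each). In all, 7 of 19 pairs passed. All 7 stood at the smallest exact p-value, so that their adjusted value depends on how many pairs did.

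The profile was steep. The first 10 miRNAs of the mean order held 86.0% of the sum and the first 20 held 94.3%, and between 12 and 16 miRNAs per animal were needed to reach 90% and between 51 and 64 to reach 99%. Of the 516 miRNAs, 13 had a mean share of at least 1% and together held 89.3%. Another 25 lay between 0.1% and 1% (8.30% together), 54 between 0.01% and 0.1% (2.05%), 81 between 0.001% and 0.01% (0.276%) and 316 below 0.001% (0.0390%). The other 27 miRNAs had no read in any control, which allows a share of up to 7.06e-06% of the pooled reads by counting error alone.

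Between 333 and 417 miRNAs per animal had at least 1 read. The number was lowest in animal 1 and highest in animal 7, the most deeply sequenced of the 7. At the depth of the shallowest library, 3738295 reads, the expected numbers were 313 in animal 1 and 368 in animal 7. In all 7 animals 279 miRNAs (54.1%) were detected (282 without animal 3), and these held 99.996% of the sum. Of the 210 miRNAs found in 1 to 6 animals, the median total over the 7 libraries was 4 reads and the highest 102 (miR-6324, in 6 animals). Detection at this depth therefore turned on few reads, and with a minimum of 10 reads 207 miRNAs were found in all animals. Of the hairpins 95.2% and of the ncRNAs 70.7% had reads in every animal.

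Summed over seeds, the profile was led by the miR-16 family after miR-486, whose sequence was not matched. The 5 members with the seed AGCAGCA held 10.3% ± 0.888, of which miR-16-5p made up 97.9%. The 9 members of the let-7 family (GAGGUAG), known for holding back growth and stem cell programmes, held 9.36% ± 1.55 and ranged from 7.14% in animal 1 to 11.1% in animal 3. In contrast to the miR-16 family the let-7 share was divided among many members, and its first member, let-7f-5p, made up 33.4%. The miR-26 family (UCAAGUA) held 6.70% ± 0.433, miR-191a-5p (AACGGAA) 4.48%, the miR-181 family (ACAUUCA) 2.33% ± 0.468, the 5 members of the miR-25/92 family (AUUGCAC) 1.66% ± 0.132, miR-451-5p (AACCGUU) 1.50% and the miR-27 family (UCACAGU) 1.42% ± 0.197. The coefficient of variation (CV) between animals was 7.94% for the summed miR-25/92 family, against a median of 19.7% for its single members. Most of this sum was miR-25-3p, which had a mean share of 1.40% and a CV of 9.44% by itself.

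The labelled tissue was checked on 12 lists of miRNAs known from cell types or organs. The 13 miRNAs of the erythroid list were found in all 7 animals, as were 54.1% of all 516 miRNAs. They held 69.0% ± 3.44 together, from 64.2% in animal 4 to 74.9% in animal 1. Their median rank was 19, against 258.5 for all 516 miRNAs. miR-486, miR-16-5p and miR-451-5p were the most abundant of them. The least abundant were miR-185-5p (0.0213%), miR-182 (0.0179%) and miR-96-5p, which was at rank 269 with 33 reads over all animals. With miR-486 left out of the list and of the sum, the list held 31.4% to 37.9%, with a median of 34.5%.

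The sums of the white cell and platelet lists were far lower than the erythroid sum. Most of the erythroid sum was miR-486 (53.1%) and miR-16-5p (10.1%). The next erythroid miRNA, miR-451-5p (1.50%), was below miR-191a-5p (4.48%) and miR-181a-5p (1.97%) of the other lists, and above miR-142-5p (0.877%). The median rank was 19 in the erythroid list, 59 in the myeloid, 80 in the lymphoid and 91 in the platelet list. Sums of lists are given as means over animals, like the shares of their members. The 9 pan-haematopoietic and myeloid miRNAs had a mean sum of 1.34% (median 1.03%) and ranged from 0.666% in animal 1 to 2.54% in animal 4, and animal 7 was next with 2.28%. They were led by miR-142-5p (mean share 0.877%), miR-21-5p (0.252%) and miR-142-3p (0.0965%), and miR-223-3p, the main miRNA of neutrophils, had 0.0513%. The 12 lymphoid miRNAs had a mean sum of 2.48% (2.02% to 3.12%), led by miR-181a-5p (1.97%), miR-181c-5p (0.225%) and miR-150-5p (0.104%). The 11 platelet and endothelial miRNAs had a mean sum of 5.50% (4.33% to 7.30%), of which most was miR-191a-5p (4.48%) and miR-22-3p (0.911%), followed by miR-10a-5p (0.0521%). The arms of the endothelial miR-126a had 0.0248% (5p) and 0.00493% (3p). In such bulk samples fewer cells of a type and less RNA per cell cannot be told apart.

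miRNAs of solid organs were present at low shares. The 5 liver miRNAs had a mean sum of 0.123% (0.0626% to 0.189%), most of which was miR-192-5p (0.104%), with miR-122-5p, the hepatocyte miRNA, at 0.0116% and miR-194-5p at 0.00755%. The 6 kidney miRNAs, of which 2 are on the liver list and 1 is on the platelet and endothelial list, had a mean sum of 0.173%, with miR-192-5p, miR-10a-5p and miR-30a-3p (0.00903%) in front. The 8 smooth muscle and fibroblast miRNAs had a mean sum of 0.168%, nearly all of it miR-143-3p (0.163%), with miR-145-5p (0.00162%) and miR-125b-5p (0.00154%) far below. The 10 brain miRNAs had a mean sum of 0.0783%, of which miR-128-3p, a miRNA that is also found outside the brain, made up nearly all (0.0740%), before miR-138-5p (0.00216%) and miR-488-3p (0.00180%), whereas the neuronal miR-124-3p had 3 reads over all 7 animals. The 8 epithelial miRNAs had a mean sum of 0.00396%, led by miR-141-3p (0.00152%), miR-203a-3p (0.00143%) and miR-375-3p (0.000664%). The 12 miRNAs of embryonic stem and germ cells had a mean sum of 0.00568%, led by miR-449a-5p (0.00326%), miR-34c-5p (0.00231%) and miR-34b-5p (8.46e-05%). Their members miR-743a-5p, miR-743b-5p and miR-881-3p had no read. The 3 pancreas miRNAs had a mean sum of 0.000665%, nearly all of it miR-375-3p. miR-216a-5p had 1 read and miR-217-5p none.

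The muscle list was the lowest but for the pancreas list. Its 9 members summed to 0.00013% in animal 3, a median of 0.00114% and 0.0138% in animal 6, where no other animal exceeded 0.00217%. miR-1-3p, the common miRNA of skeletal and heart muscle, had 610 of its 804 reads in animal 6 (CV of its share 175%), and miR-133a-3p 393 of 494 (CV 185%, the highest of the 227 miRNAs above 100 normalized counts). miR-499-5p had 64 reads in all. miR-206-3p, miR-208a-3p and miR-499-3p had no read in any control. Without animal 6 the mean sum of the list was 0.000982% in place of 0.00281%. The blood was drawn by cardiac puncture, and the study's authors ask for caution with muscle transcripts because this may give an artifact. The part of the puncture in these values was not tested.

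Animals 1 and 4 lay at opposite ends of many lists. Of the 11 lists other than the erythroid one, 7 were highest in animal 4 and 7 were lowest in animal 1, and 5 and 5 when miR-486 was left out of the sum. Of the 127 miRNAs that averaged 1000 normalized counts or more, 38 had their highest share in animal 4 and 53 their lowest in animal 1. These counts are of shares that include miR-486, which was highest in animal 1 (61.5%) and lowest in animal 4 (47.7%). A larger share of miR-486 leaves less for the other miRNAs, and the counts without it were not taken. The base composition of the miRNAs moved with the deviations of animals 1 and 4. Across the 115 of the 127 miRNAs with a sequence, Spearman's rho between the percentage of A and U and the log2 deviation from the median animal was −0.39 in animal 1 and 0.35 in animal 4, and between −0.20 and 0.11 in the other 5. These points share a library, and the part of base composition in the deviations was not tested.

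The share of a miRNA varied between animals with a median CV of 29.3% over the same 227 miRNAs, and the median ratio of this CV to the CV from counting error was 5.00. For 126 of the 127 miRNAs above 1000 normalized counts the CV was more than 2 times that of counting error. The most even of the 127 were miR-26a-5p (CV 6.45%), miR-425-5p (7.16%), miR-486 (8.26%), miR-30c-5p (8.54%) and miR-16-5p (8.56%), whose highest and lowest animals differed by 1.22 to 1.29 times. As CVs of the normalized count in place of the share, these 5 had 12.7% (miR-26a-5p), 17.4% (miR-425-5p), 23.4% (miR-486), 18.2% (miR-30c-5p) and 15.8% (miR-16-5p), so that their evenness holds for shares of the table's sum. The 8.26% of miR-486 was 4.96% without animal 1. In 61 of the 127 the range stayed below 2 times, and in 8 it reached 5 times.

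**Figure D2:**
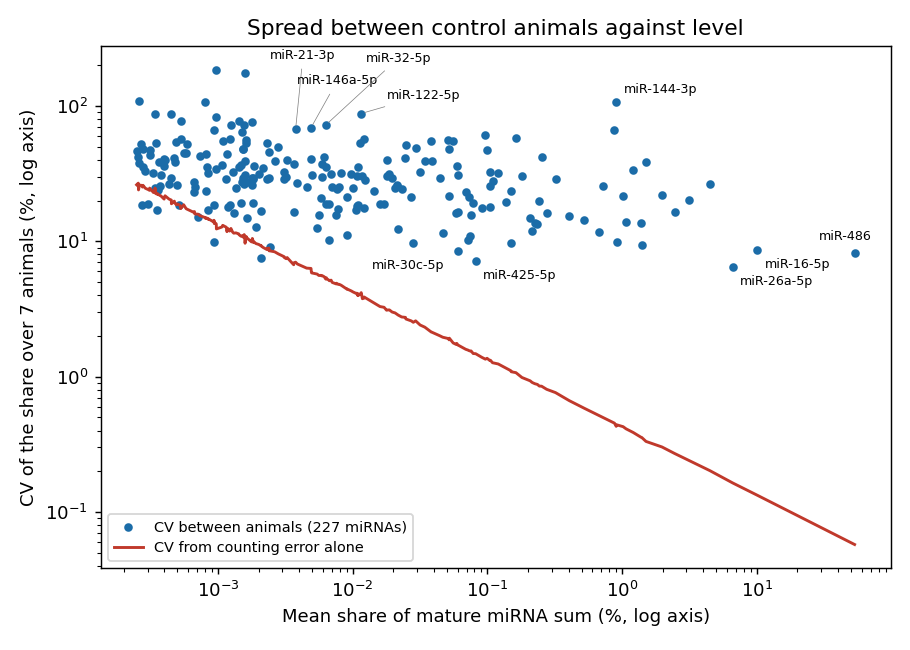
CV of the share over the 7 control animals (percent, log axis) against the mean share (percent, log axis) for 227 miRNAs, each a point, with a line for the CV that counting error alone gives. The points of abundant miRNAs lie far above the line, and the 10 miRNAs that are named are the 5 most even and the 5 most uneven above 1000 normalized counts.

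The most uneven of the same 127 miRNAs above 1000 normalized counts were miR-144-3p (CV 107%), miR-122-5p (87.9%), miR-32-5p (72.4%), miR-146a-5p (69.0%) and miR-21-3p (67.4%). miR-144-3p held 0.294%, 0.289%, 0.473%, 1.63%, 0.485%, 0.335% and 2.81% in animals 1 to 7. Animals 4 and 7 were thus above the others, and the mean without animal 7 was 0.584% in place of 0.903%. The same 2 animals were the highest for miR-32-5p (0.0120% and 0.0138%, others up to 0.00456%), miR-21-3p (0.00835% and 0.00583%, others up to 0.00362%), miR-142-5p (1.75% and 1.65%, others up to 0.865%) and miR-142-3p (0.158% and 0.201%, others up to 0.0762%). miR-146a-5p, a brake on inflammatory signalling, had another pattern, with 0.00864%, 0.00944% and 0.00716% in animals 4, 5 and 6 and at most 0.00314% elsewhere. miR-191a-5p and miR-181a-5p were also highest in animals 4, 5 and 6. miR-122-5p ranged 31.0 times, from 0.000859% in animal 6 to 0.0266% in animal 4, whereas the other abundant liver miRNAs were more even, with CVs of 32.5% (miR-192-5p) and 15.6% (miR-194-5p).

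Arm use was examined in the hairpins for which both arms are listed under the same name. Their precursors are shown from RefSeq for hairpins at the ends and in the middle of the range, with both mature arms in capitals, the 5p arm first.
mir-26a: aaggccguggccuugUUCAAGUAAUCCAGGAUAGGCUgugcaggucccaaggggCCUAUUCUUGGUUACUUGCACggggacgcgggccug
mir-144: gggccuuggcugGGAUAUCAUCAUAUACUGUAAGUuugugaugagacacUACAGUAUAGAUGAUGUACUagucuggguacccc
mir-451: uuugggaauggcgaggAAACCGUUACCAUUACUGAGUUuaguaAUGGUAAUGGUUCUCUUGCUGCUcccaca
mir-22: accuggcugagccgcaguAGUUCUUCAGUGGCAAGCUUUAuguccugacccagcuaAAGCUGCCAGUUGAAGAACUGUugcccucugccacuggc
In the GRCr8 build mir-144 lies at chr10:63459397-63459479 and mir-451 at chr10:63459569-63459640, both on the plus strand and 89 bases apart. mir-22 lies at chr10:60805331-60805425 and mir-26a at chr8:127633048-127633137, also on the plus strand.

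Of 162 such hairpins, 121 averaged 100 normalized counts or more over both arms together. Their log2 ratio of 5p to 3p was tested against 0 with limma (two-sided, Benjamini-Hochberg adjustment, pseudocount of 1). The 5p arm was higher in 64 of the 121 hairpins (52.9%) and the 3p arm in 47 (38.8%) at an adjusted p-value under 0.05, and 10 were not called. Without animal 3 the numbers were 63 and 47. In 63 hairpins the 5p arm and in 45 the 3p arm was higher in 7 of 7 animals. The median size of the log2 ratio was 6.47, and 59 of the 121 hairpins were past 100 times, whereas 13 stayed under 2 times. In 56 hairpins the minor arm had no read in at least 1 animal, so that these fitted ratios, and their order, depend on the pseudocount, and below only the reads are given for them.

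**Figure D3:**
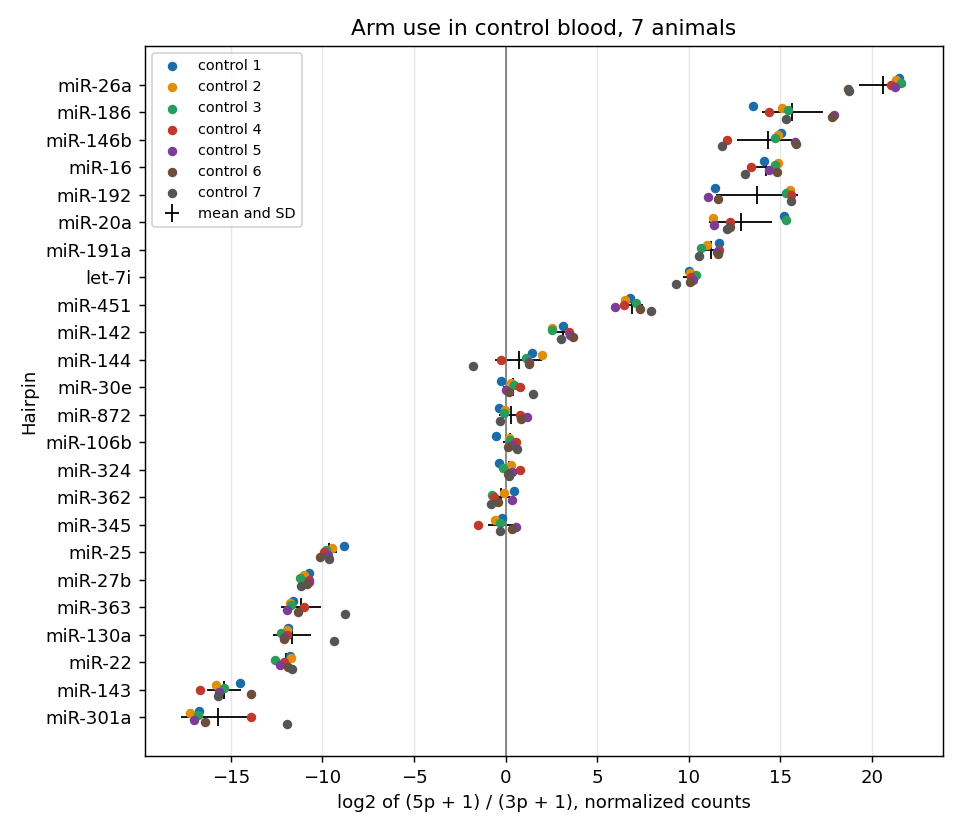
The log2 ratio of 5p to 3p normalized counts in 24 hairpins, with 1 point for each control animal and the mean with its SD, where values above 0 mean more 5p and points of an animal without a read of the minor arm are set by the pseudocount of 1. miR-26a to miR-142 lie right of 0 and miR-25 to miR-301a left of it in all 7 animals, whereas the animals fall on both sides for miR-144 and the 6 hairpins next to 0.

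Toward 5p the hairpins with the largest fitted ratios at a pseudocount of 1 were miR-26a, miR-186, miR-146b, miR-16, miR-192 and miR-20a, which also had the most 5p reads for each read of 3p. miR-26a had 2795163 reads of 5p and 2 of 3p over the 7 animals, so that the 3p arm made up 7.16e-05% (exact Clopper-Pearson 95% interval 8.67e-06% to 0.000258%, for counting error only). miR-186 had 279847 reads of 5p and 7 of 3p, miR-146b 40277 and 2, miR-192 43021 and 5, and miR-20a 43000 and 8. For miR-16, with 4246344 reads of 5p, the 253 reads of 3p were spread over all 7 animals, and the log2 ratio was 14.19 ± 0.73 (SD, limma adjusted p = 9.37e-11). The 3p arm of miR-16 is aCCAAUAUuauugugcugcuu, with another seed than its 5p arm.

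Toward 3p the hairpins with the largest fitted ratios at a pseudocount of 1 were miR-301a, miR-143, miR-22, miR-130a, miR-363 and miR-27b. By reads the order was another one, with miR-143 above miR-301a, and with miR-92b (1 read of 5p and 2293 of 3p) above miR-27b. miR-143, known from smooth muscle, had 1 read of 5p and 65633 of 3p, and miR-301a 8 and 129354. miR-130a and miR-363 had 1 read of 5p each beside 4415 and 3133 of 3p. miR-22 had 97 reads of 5p and 386974 of 3p, with a log2 ratio of −12.01 ± 0.34 (SD, limma adjusted p = 1.49e-11), and in the precursor above it is the arm on the right that was kept. miR-27b had 299 reads of 5p and 591596 of 3p (log2 ratio −10.92 ± 0.21, limma adjusted p = 1.13e-11), and was the most even of the 12 between animals.

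Among the other two-armed hairpins of the 20 most abundant miRNAs, 5p was the higher arm for miR-191a (787 reads of 3p beside 1842041 of 5p), let-7i, let-7g, miR-93 and miR-451, and 3p for miR-25 (756 reads of 5p beside 595274 of 3p). The minor arm made up 0.730% of the miR-451 reads and 0.587% of those of miR-93. let-7d and miR-142 used their second arm more, with 10.4% and 10.2% of the reads on 3p and log2 ratios of 3.11 and 3.13.

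The 6 hairpins nearest to even use of both arms were miR-324 (log2 ratio 0.17), miR-106b (0.21), miR-362 (−0.27), miR-872 (0.28), miR-345 (−0.28) and miR-30e (0.42), with limma adjusted p-values of 0.0812 to 0.410. Besides these and miR-144, miR-532 (0.65), miR-505 (−0.49) and miR-542 (−0.62) were not called. miR-106b, of the miR-17 family that promotes growth, had 29687 reads of 5p and 25211 of 3p. Its arms are shown because both stood in the blood at nearly the same level with different seeds.
miR-106b-5p: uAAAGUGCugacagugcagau
miR-106b-3p: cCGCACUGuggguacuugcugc
In single animals the 5p arm of miR-106b made up 41.1% to 60.5%, and that of miR-30e 46.0% to 73.5%.

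miR-144 was the abundant hairpin whose arms changed places between animals. Its log2 ratio was 1.42, 1.97, 1.11, −0.25, 1.25, 1.29 and −1.78 in animals 1 to 7, with a mean of 0.72 ± 1.29 (SD, limma adjusted p = 0.138). The 5p arm was thus higher in 5 animals and the 3p arm in animals 4 and 7, and the 3p share of the hairpin ran from 20.3% to 77.5%. It was the 3p arm that varied, since the share of miR-144-5p in the mature sum had a CV of 21.6% and that of miR-144-3p one of 107%. Without animal 7 the ratio was 1.13 and past the threshold. In 13 of the 121 hairpins the direction was not the same in all 7 animals.

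The first base of the arms was compared in the 98 called hairpins with both sequences. The major arm began with U in 52 (53.1%) and the minor arm in 20 (20.4%), whereas 38.5% of all 465 mature sequences begin with U. The share was 55.9% of major arms where 5p was higher and 48.7% where 3p was higher. Major arms began with G in 6 hairpins and minor arms in 12. These are counts over hairpins, some of which are of the same family, and were not tested.

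The hairpin table was also led by miR-486, but the order after it was another one. mir-486 held 69.2% ± 2.63, with a range of 65.2% to 73.2%, and was followed by mir-92a-1 (4.93%), mir-451 (4.18%), mir-92a-2 (3.07%), mir-30e (1.94%), mir-30a (1.10%), mir-26a (0.949%), mir-191b (0.781%), mir-191a (0.780%) and mir-148a (0.614%). Without animal 3 mir-486 held 69.2%. Of these 10, mir-451 had the highest CV but for mir-148a (30.7% and 33.5%), and mir-486 the lowest (3.80%). The first 10 hairpins of the mean order held 87.5% and the first 20 held 92.4%, and 15 hairpins were needed for 90% of the sum.

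Reads on a hairpin did not simply contain those on its mature arms. Of 295 hairpins matched by name to mature miRNAs with reads, 95 had at least 1000 reads on the arms, and for 58 of the 95 the hairpin had fewer reads than its arms. The ratio of hairpin reads to mature reads had a median of 0.647 and ran from 0.0382 for mir-22 to 247 for mir-30c-2. By name mir-30c-2 was matched only to miR-30c-2-3p (1044 reads). miR-30c-5p, with 25847 reads and no copy number in its name, was left out. Likewise mir-181a-1 (ratio 33.1) was matched to 2436 reads, without the 822556 of miR-181a-5p. The ratios of such numbered copies are therefore too high. mir-16 had 165048 reads beside 4246597 on its arms (ratio 0.0389), mir-26a a ratio of 0.178 and mir-144 of 0.122. In contrast the ratio was 1.62 for mir-486, 3.24 for mir-451, 7.00 for mir-30a, 17.6 for mir-148a, 36.0 for mir-30e and 37.9 for mir-140. The ratio was much alike in all animals, with a median CV of 14.6% over the 95 hairpins. For 51 of them the hairpin was below its arms in 7 of 7 animals and for 31 above. The 31 include numbered copies such as mir-30c-2 and mir-181a-1.

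**Figure D4:**
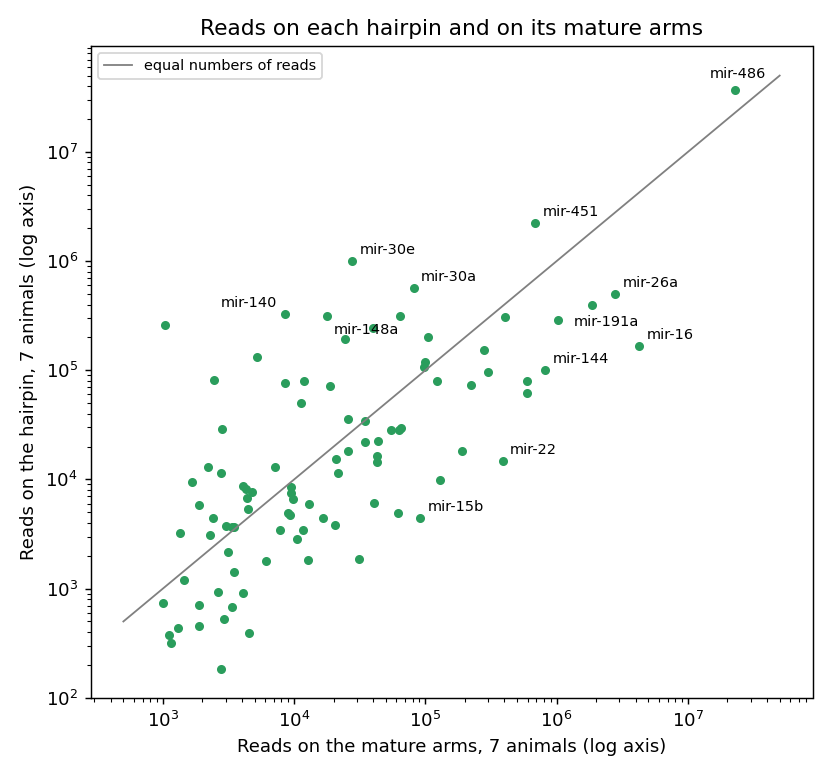
Reads on each hairpin against reads on its mature arms, both summed over the 7 control animals (log axes). The 95 hairpins with at least 1000 mature reads, matched by name, are shown, with a line where both are equal. mir-16 and mir-22 lie far below the line (ratios 0.0389 and 0.0382), mir-30e and mir-140 far above it (36.0 and 37.9).

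The rank of a miRNA therefore depended on the table. Of the first 10 stems in the mature table, where both arms and numbered copies were summed, 4 were among the first 10 in the hairpin table. miR-92a, a miRNA of the miR-17-92 cluster that is abundant in red cells, was 24th in the mature table with 0.244% and 2nd in the hairpin table with 7.99%. The hairpin share is the sum of mir-92a-1 (4.93%) in that cluster and mir-92a-2 (3.07%), which lies in another group on chromosome X. With the reads of both tables added miR-92a was 3rd with 4.54%, after miR-486 (62.0%) and miR-16 (4.66%), and miR-30e rose from rank 46 to 9. The rule by which reads were given to the mature or to the hairpin table is not given in the sources used here, and its part in these ratios was not tested. The sum of both tables, and a sum over numbered copies, may count a read more than once.

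Hairpins that lie together in the genome differed widely in the hairpin table. RefSeq positions were found for 384 of the 495 hairpins, of which 165 lay in 48 groups on the same strand with gaps of at most 10000 bases. Within a group the hairpin with the most reads had a median of 16.9 times the reads of the one with the fewest. In the miR-17-92 group on chromosome 15, a polycistronic transcript, mir-92a-1 had 2554773 reads and mir-19a 2865. On the mature arms the gap was smaller, with 103600 reads for miR-92a-3p, whose name carries no copy number, and 10429 for miR-19a. mir-451 had 15.9 to 37.2 times the reads of mir-144 in the single animals, although on the mature arms miR-144 had more reads than miR-451 (819964 and 685923).

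Some hairpin values were not independent of each other. Of 31 pairs of hairpins that overlap on opposite strands of the genome, the smaller had a median of 95.6% of the reads of the larger. let-7d had 18027 reads and mir-3596b on the other strand 18025, mir-122 had 8153 and mir-3591 8180, and mir-191a 398100 and mir-191b 398477. Copies at different loci did the same, such as mir-30c-1 with 257866 reads and mir-30c-2 with 257767. The values of such hairpins cannot be told apart. mir-208a, whose miRNA is known from heart muscle, had 1805 reads beside 1843 of mir-3546 on the other strand, while its mature arms had 0 (miR-208a-3p) and 11 (miR-208a-5p) reads. Whether the counting used the strand is not given in the sources used here.

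The ncRNA table held 9199 transcripts and was led by AABR07031718.1 (ENSRNOT00000090410), whose name gives no class of RNA. It took 35.5% ± 13.8 of the sum, with a median of 37.7%, and ranged from 20.9% in animal 7 to 60.9% in animal 5. Without animal 3 the mean was 37.8%. It was followed by Rn50_20_0058.5 (ENSRNOT00000084263) with 2.27% (0.926% to 3.68%), and by transcripts named Neurod1 (ENSRNOT00000086507, 1.46%) and Abhd16a (ENSRNOT00000079886, 1.45%). The reads of the Abhd16a transcript were 99.1% to 99.7% of those of the Neurod1 transcript in every animal, so that these 2 values are not independent either.

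The other 6 of the first 10 ncRNAs were transcripts with identical counts in each animal. Together with a seventh they are the 5.8S rRNA transcript Rn5-8s and 6 transcripts with clone names (AABR07063419.1, AABR07048790.1, AABR07048787.1, AABR07000390.1, AABR07015089.1 and AABR07000400.1), each at 1.03% and ranging from 0.227% in animal 6 to 2.26% in animal 2. In all 1430 transcripts with reads had the same counts as at least 1 other transcript in all 7 animals, in 422 sets. With each set counted once, AABR07031718.1 took 38.6% ± 14.3.

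5S rRNA, the small RNA of the large ribosomal subunit, was listed under 288 transcripts that held 9.27% ± 6.15 together and ranged from 2.46% in animal 5 to 18.7% in animal 4 (mean 9.67% without animal 3). The 7 transcripts with the counts of 5.8S rRNA summed to 1.59% in animal 6 and 15.8% in animal 2, with a median of 7.99%. How reads that match several transcripts were counted is not given in the sources used here. This sum and that of 5S rRNA may therefore count a read more than once. Rn7sl1, the RNA of the signal recognition particle, had 0.281% ± 0.0760. Most of the table, 7793 transcripts with 76.4% of the sum, carries names of clones or contigs that give no class, and 923 transcripts named by gene symbols held 11.5% ± 3.92. The libraries were size-selected for short RNA, so that these values are for fragments and not for whole transcripts.

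**Figure D5:**
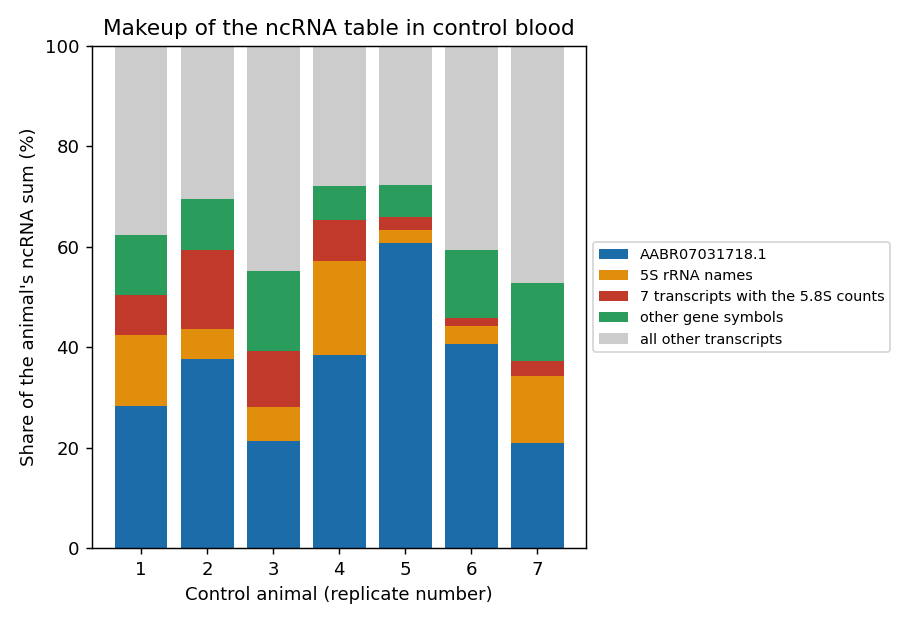
Share of the ncRNA sum (percent) in each of the 7 control animals, as stacked bars for the leading transcript, the 5S rRNA names, the 7 transcripts with the counts of 5.8S rRNA, the transcripts with other gene symbols and all others. The leading transcript fills 60.9% of the bar of animal 5 and 20.9% of that of animal 7, and the 5S part is largest in animal 4 (18.7%). The 5S and 5.8S parts may count a read more than once.

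The median CV between animals was 52.5% over the 5796 ncRNAs that averaged 100 normalized counts or more, 33.8% over 311 hairpins and 29.3% over 227 miRNAs. This cut is not the same level in reads. Among ncRNAs 1 read equalled 7.69 to 28.6 normalized counts, among miRNAs 4.56 to 8.42 and among hairpins 1.28 to 3.69. The cut thus admits ncRNAs with fewer reads, and how much of their CV is counting error was not tested. The ncRNA profile was less steep than that of the miRNAs, since 538 to 1284 ncRNAs were needed for 90% of the sum.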

How the data were processed

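Small RNA from whole blood was sequenced by the authors with an adapted TruSeq small RNA method and size selection, no molecular identifiers are named, and Bowtie is named in the submitters' processing notes. The genome build and counting rule are not given in the sources used here. The deposited signal values are normalized counts, made by the authors for mature miRNAs, hairpins and ncRNAs separately, in which 1000 times the reads are set against a library's upper quartile. In each control, 100% of the values of each table were whole multiples of 1 read within 0.01 read, and the reads recovered from them were used for depth and detection. Each read equalled 4.56 to 8.42 normalized counts among miRNAs, 1.28 to 3.69 among hairpins, and 7.69 to 28.6 among ncRNAs. Shares are percentages of a table's sum in 1 animal. Since the tables were scaled and counted separately, shares of different tables are set side by side as descriptions, with no test. Where no read was found, a limit of 3 reads was used. Intervals and limits cover counting error only, since reads were not independent molecules.

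The groups came from the labels. Arm use was fitted with limma 3.58.1 in R 4.3.3 (lmFit, eBayes with trend) on hairpins averaging 100 normalized counts or more, a procedure tested on simulated data, and neighbouring ranks with an exact sign-flip test over 128 assignments. The counting CV is that expected if all animals had the same share. Nothing in the labels divides the controls into batches. Replicates are animals. Alternatives were pseudocounts of 0.5 and 10, other filters, limma without trend, the sign-flip test, edgeR 4.0.16 and DESeq2 1.42.0 on recovered reads, other averages and denominators, and each animal left out. Adding mature and hairpin reads, and counting identical ncRNAs once, were chosen after seeing the data.

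The members, lists and tests were chosen with earlier results of these data known. The text names the first 20 miRNAs, the 5 most and the 5 least even, list members, the 8 largest seed families, the first 10 hairpins and ncRNAs, and, for arm use, the 6 largest ratios in each direction, the 6 nearest to 0 and the hairpins of the first 20 miRNAs. Other miRNAs, hairpins and ncRNAs were named after their values were seen. Sequences and positions are from RefSeq (GRCr8). Python 3.11.15 with numpy 2.4.6, pandas 2.3.3, scipy 1.17.1 and matplotlib 3.10.9 was used for the rest.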

Additional observations from a re-analysis of the deposited data

Results flagged for a closer look

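Of 91 shares, totals and arm ratios examined in the 7 controls, 6 had 1 animal whose gap to the nearest other exceeded, as a share of the whole range, Dixon's 95% value for 7 samples. Chance alone marks about 1 in 20. The muscle list stood out most among the shares, with 0.0138% in animal 6 against at most 0.00217% in the others. Animal 1 was low for miR-27b-3p (1.00%, others from 1.33%) and for its seed family UCACAGU (1.02%, others from 1.37%), which is nearly all miR-27b-3p. Animal 5 was high for the hairpins mir-191b (1.11%, others up to 0.803%) and mir-191a (1.11%, others up to 0.802%), whose reads are nearly the same. The log2 arm ratio of let-7i was lowest in animal 7 (9.32, others from 10.00). Arm ratios of hairpins whose minor arm had no read in some animal were not examined, since the pseudocount sets them.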

How the results depend on the processing

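Arm calls moved little: with each animal left out 63 to 67 hairpins were called for 5p and 46 to 48 for 3p, and none of the 111 calls took the opposite direction under any alternative. Where only the 78 hairpins averaging 1000 normalized counts or more were tested, 28 were called for 3p. miR-330 and miR-140 were the 2 calls that other alternatives lost. The mature reads of miR-486 equalled 31.2% of the hairpin and ncRNA reads together, a sum that does not contain them, and miR-486 took 62.0% with mature and hairpin reads added. Without miR-486, 23 miRNAs held 90% of the rest in place of 14. The median CV was 60.1% with no filter on level, where miRNAs with few reads enter. With 6 animals 0 to 0 of the 19 neighbouring pairs passed, which says nothing about stability, since the smallest p is then 0.0312. No paired analysis was possible because only 1 group was used and no groups were compared. Depth limits the detection of miRNAs with few reads, and of minor arms.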
